A study of Mus musculus with 10 samples.

Results

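The genes of oxidative phosphorylation were followed in 10 RNA sequencing libraries of pancreatic islets. Members were taken by gene symbol: the mitochondrially encoded mt-Nd, mt-Co, mt-Atp and mt-Cytb genes, the nuclear Nduf, Sdh, Uqcr, Cox4 to Cox8 and Atp5 genes, Cyc1 and Cycs. Of 17945 named genes in the deposited table, 97 were members, 13 mitochondrially encoded and 84 nuclear. The nuclear set held 80 genes of subunits or cytochrome c and 4 others that carry an Atp5 symbol: Atp5s, Atp5sl and the pseudogenes Atp5l2-ps and Atp5l-ps2.

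The islets came from C57BL/6 mice aged 18 weeks. The 5 knockout libraries were labelled Pdx1-CreER; Grk5 flox/flox, and the 5 controls Grk5 flox/flox without the driver, so both groups shared the floxed alleles and only the knockouts carried the Cre transgene. Grk5 encodes a kinase of activated G protein-coupled receptors. Pdx1 is active in β cells, the insulin-producing cells that make up most of an islet, and whole islets also hold α, δ and other cells that such a driver need not reach. Whether every library is a different animal is not in the labels. The p-values therefore set a group difference only against the spread between these libraries within groups, which may be partly technical. Both group names follow the labels. Esr1, an estrogen receptor gene like the one that gives CreER its hormone-binding part, had normalized counts of 2.0, 2495.0, 10.5, 0.0 and 773.5 in the libraries labelled control 1 to 5, and of 2057.8, 1516.7, 2467.7, 3028.4 and 3176.8 in those labelled knockout 1 to 5. Control 2 thus lay within the knockout range and control 5 between the groups, which goes against their labels if these reads come from the transgene; their source was not tested. Differences of the named members were therefore also computed without those controls.

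The respiratory chain lies in the inner mitochondrial membrane. Complex I takes electrons from NADH and complex II from succinate, ubiquinone carries them to complex III, and cytochrome c carries them on to complex IV, which reduces oxygen. Complexes I, III and IV pump protons, and complex V, the ATP synthase, makes ATP from the return flow. In β cells the ATP made from glucose closes potassium channels and so leads to insulin release. Complex II is built from nuclear genes alone, while the other complexes combine nuclear subunits with subunits encoded on mitochondrial DNA, which is transcribed as long RNAs that are then cut into single messages.

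Copies of mitochondrial DNA also lie in the nuclear genome, and some of them have values of their own in the deposited table. A search of GENCODE M21 transcripts (build GRCm38) for members' coding sequences found a tract on the minus strand of chromosome 1, from 24611535 to 24616197, with 7 annotated unprocessed pseudogenes. They are Gm28439, Gm10222, Gm28438, Gm28437, Gm10925, Gm28661 and Gm29216, copies of mt-Nd4, mt-Nd4l, mt-Nd3, mt-Co3, mt-Atp6, mt-Co2 and the end of mt-Co1, and their aligned parts were 99.7% to 100% identical to the mitochondrial genes. A further tract on chromosome 2 holds more diverged copies, among them Gm13341 and Gm13340. The stretches shown here, each 75 bases, the length of 1 sequencing read, let a reader compare gene and copy letter by letter. Capitals mark the positions at which the sequences of a set are not all alike. The mt-Co2 stretch lies at chrM:7460-7534 (+), its copy Gm28661 at chr1:24615044-24615118 (-) and Gm13341 at chr2:22587453-22587527 (-).
mt-Co2: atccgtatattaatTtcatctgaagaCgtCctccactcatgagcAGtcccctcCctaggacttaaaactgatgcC
Gm28661: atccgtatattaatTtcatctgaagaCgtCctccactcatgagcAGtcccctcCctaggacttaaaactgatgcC
Gm13341: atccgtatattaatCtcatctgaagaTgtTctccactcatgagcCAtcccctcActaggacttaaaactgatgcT

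Gm28661 differed from mt-Co2 at 0 of these positions and over the whole coding sequence was 100% identical, whereas Gm13341 differed at 7. The stretches were picked for their differences and are not typical of the whole copies: over its whole match Gm13341 was 95.9% identical to mt-Co2. Stretches of mt-Co1 (chrM:6390-6464, +), Gm29216 (chr1:24616114-24616188, -) and Gm13340 (chr2:22588511-22588585, -) form the second set. The mt-Co1 stretch covers coding bases 1063 to 1137 of 1542, where its match to Gm29216 begins. Here 1 base sets Gm29216 apart, the only mismatch in its 480 aligned bases, and 2 bases set Gm13340 apart.
mt-Co1: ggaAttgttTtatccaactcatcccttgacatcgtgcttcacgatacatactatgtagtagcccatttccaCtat
Gm29216: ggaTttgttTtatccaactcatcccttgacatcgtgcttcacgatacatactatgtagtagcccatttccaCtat
Gm13340: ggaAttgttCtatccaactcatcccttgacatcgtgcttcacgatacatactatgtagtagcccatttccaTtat

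Nuclear members have such copies too. Cycs encodes cytochrome c, and Gm10053, whose stretch lies at chr19:24875753-24875827 (+), holds its coding sequence without a difference. The processed pseudogene Gm10108, at chr5:13121692-13121766 (-), differs at 2 of the first 75 coding bases, the only 2 mismatches in its 315 aligned bases.
Cycs: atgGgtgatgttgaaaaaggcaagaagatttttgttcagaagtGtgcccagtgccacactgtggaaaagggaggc
Gm10053: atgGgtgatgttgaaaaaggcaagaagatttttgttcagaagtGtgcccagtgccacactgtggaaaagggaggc
Gm10108: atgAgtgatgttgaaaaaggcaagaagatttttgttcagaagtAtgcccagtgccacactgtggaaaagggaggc

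In all, 50 members had a copy at 90% identity or more over at least 30% of the coding sequence. Of these, 23 members, 9 mitochondrial and 14 nuclear, had a copy with its own value in the deposited table.

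Library totals of the deposited normalized counts ran from 5534386 to 7358040, and genes above 0 from 10222 in knockout 1 to 14632 in knockout 3. Knockout 1 stood apart in 1 further respect: 19.5% of the genes tested were at 0 there, against 1.84% to 7.04% in the other libraries. Grk5 itself did not separate the groups, with normalized counts of 197.0, 165.0, 386.9, 331.8 and 127.9 in controls 1 to 5 and 269.8, 129.9, 94.4, 207.0 and 105.5 across knockouts 1 to 5. These gene totals do not show the deleted part on its own. The 9 β-cell markers, Ins1 and Ins2 among them, were all detected, with summed values of 957737 to 1280330 per library. All 9 had a log2 difference below 0, and 1 of them, the glucose transporter gene Slc2a2, had an unadjusted p under 0.05 (-0.49 ± 0.17, SE, limma unadjusted p = 0.0103, adjusted p = 0.942). Of 6 markers of α, δ and pancreatic polypeptide cells 5 were below 0. So were 2 of 5 duct, 2 of 6 stromal and 2 of 4 immune markers tested, none of these lists with a gene at that p. Of all genes tested 52.4% were below 0, and 5.01% were under that p in either direction. Of 7 endothelial markers 6 were above 0, none at that p. The groups did not overlap for 1 of them, the growth factor receptor gene Kdr, as for 0.862% of all genes tested. Acinar transcripts, from the enzyme-secreting cells around islets, varied widely: their summed level was 24204 to 308827 in controls and 36393 to 97011 in knockouts. Of 24 tested acinar markers 22 had a log2 difference below 0. Among them 1, Try5, had an unadjusted p under 0.05 (-1.51 ± 0.51, SE, limma unadjusted p = 0.0157, adjusted p = 0.942). The part of these cell types in the results below was not tested beyond the fit with an acinar covariate.

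Oxidative phosphorylation transcripts made up a similar part of the islet RNA in both groups. The 13 mitochondrial genes took 2.14%, 2.55%, 2.56%, 2.43% and 2.33% of the deposited total in controls 1 to 5 and 2.00%, 2.56%, 2.42%, 2.25% and 2.69% across knockouts 1 to 5. The 84 nuclear genes took 0.39%, 0.43%, 0.48%, 0.40% and 0.46% in the controls and 0.35%, 0.43%, 0.43%, 0.46% and 0.51% in the knockouts. Knockout 1 was the lowest and knockout 5 the highest library for both, so the widest spread lay within the knockout group. The group means were 2.40% ± 0.17 and 2.39% ± 0.27 for the mitochondrial genes, and 0.43% ± 0.036 and 0.44% ± 0.056 for the nuclear genes (SD, 5 libraries each), in controls and knockouts. The ratio of the mitochondrial to the nuclear sum, which does not depend on how a library is scaled, was 5.59 ± 0.42 in controls and 5.48 ± 0.40 in knockouts (SD, 5 libraries each), with single libraries between 4.90 and 6.09. With the copies counted in, the ratio was 6.73 ± 0.40 and 6.70 ± 0.42. These differences between group means were smaller than the SD of either group. In such bulk samples, fewer cells of a type and less RNA per cell cannot be told apart.

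**Figure D1:**
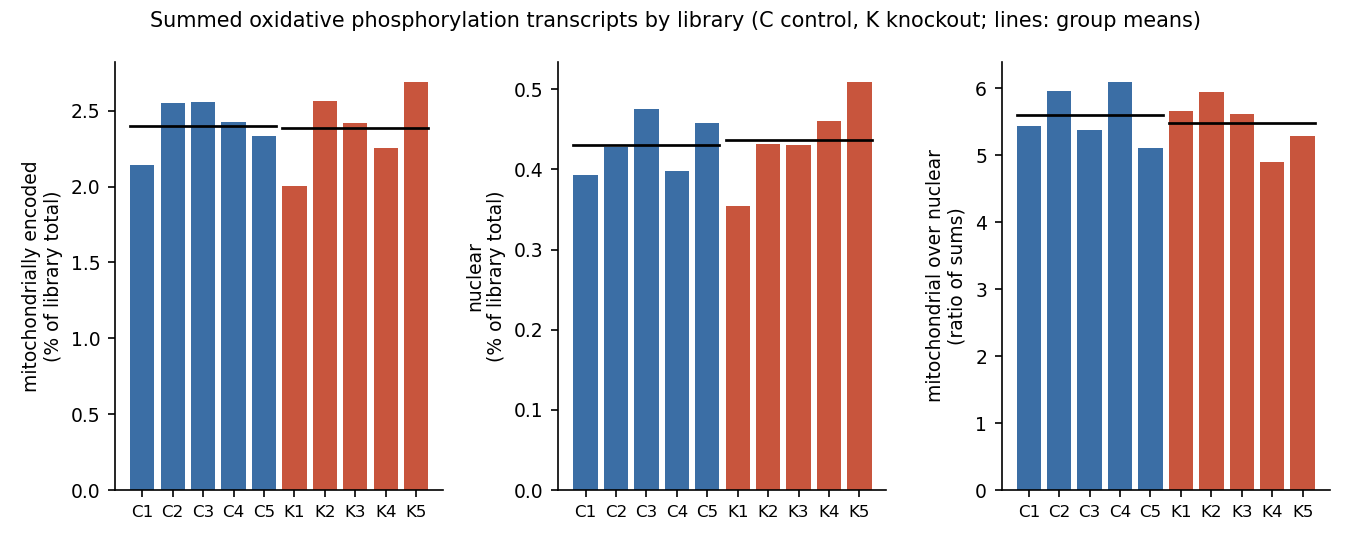
Bars give, for each library (C control, K knockout, numbered 1 to 5), the share of the deposited total taken by the 13 mitochondrial and the 84 nuclear genes, in percent, and the ratio of both sums. Black lines are group means (n = 5), and the group ranges overlap in every panel.

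Among the mitochondrial genes, levels per kb of transcript followed an order led by mt-Co1, the catalytic subunit of complex IV, at 23423 normalized counts per kb over all libraries. The cytochrome b gene mt-Cytb was next at 18072. The complex I gene mt-Nd6, the member encoded on the opposite strand, followed at 15202. Genes mt-Co2, mt-Atp8, mt-Nd1, mt-Nd5, mt-Nd4, mt-Atp6 and mt-Nd2 lay between 14358 and 10030, and mt-Nd3, mt-Co3 and mt-Nd4l at 3853, 3089 and 2354. The 3 at the end all have a chromosome 1 copy, as do mt-Co1, mt-Co2, mt-Nd4 and mt-Atp6. For mt-Nd3 the copy held only 1.58% of the summed value. Whether the deposited counts kept reads of opposite strands apart has not been given by the sources used here. The mt-Nd5 and mt-Nd6 genes overlap at their ends (11742 to 13565 and 13552 to 14070), as do mt-Atp8 with mt-Atp6 and mt-Nd4l with mt-Nd4.

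The highest mitochondrial genes were also among the most even measurements in the table. The values of mt-Co1 were 38647.3, 35079.8, 36579.9, 38424.2 and 34794.5 in controls 1 to 5 and 33051.6, 33680.3, 34741.3, 34425.1 and 42467.8 across knockouts 1 to 5. Knockout 5 was the highest of all libraries and the other 4 knockouts lay below every control. The log2 difference, knockout minus control on the log2(value + 8) scale, was -0.05 ± 0.08 (SE, limma unadjusted p = 0.549), with 95% limits of 0.87 to 1.08 as a fold. For mt-Cytb the limits were 0.90 to 1.15 around a log2 difference of 0.02, and for mt-Nd5, the longest complex I gene of mitochondrial DNA, 0.86 to 1.10 around -0.05. The genes mt-Nd1, mt-Nd4, mt-Nd6 and mt-Atp8, none with a copy that has a value in the table, had log2 differences of -0.07, -0.02, 0.09 and -0.09. That of mt-Nd2 was 0.04. For 8 of the 13 mitochondrial genes the 95% limits stayed within 1.5-fold in either direction, which 463 of all 11711 genes tested did. The 2 sets differ in level, with a median mean value of 9821 for the mitochondrial genes and 137 for all genes tested. The signs of the smallest mitochondrial differences are not stable: mt-Cytb, mt-Nd2, mt-Nd4, mt-Nd5 and mt-Nd6 each changed sign under at least 1 alternative.

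**Figure D2:**
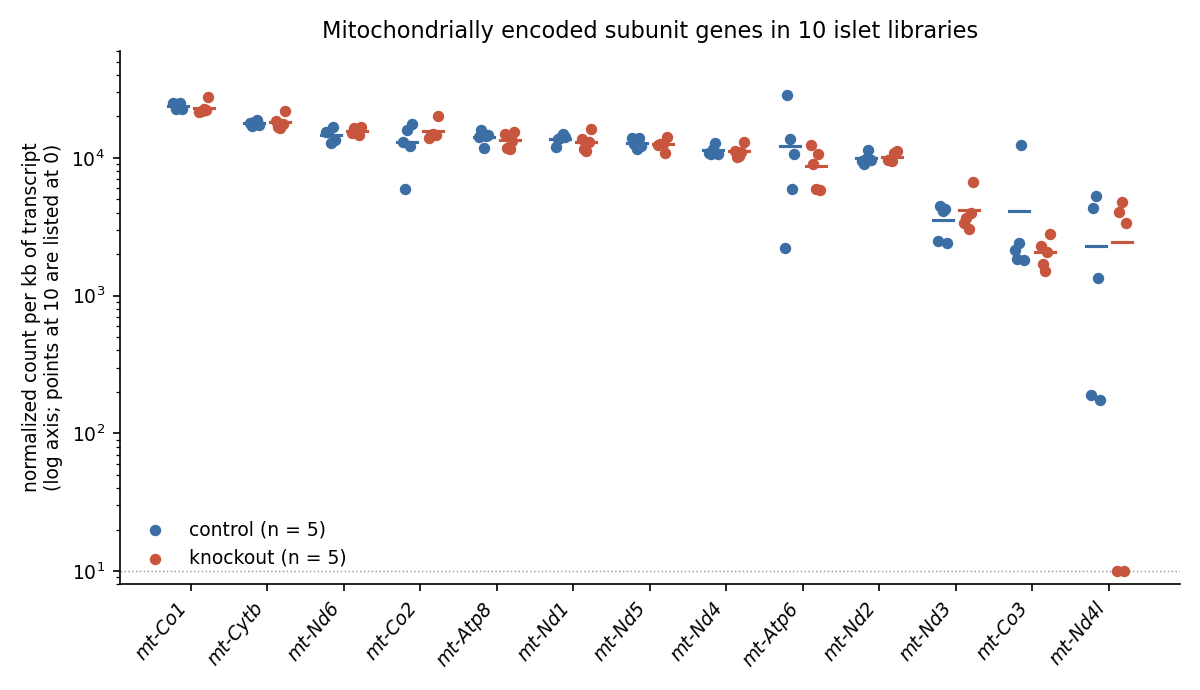
Points are single libraries (5 control, 5 knockout) and short lines are group means, in normalized counts per kb of transcript on a log axis, with genes ordered by their mean. The points of mt-Co1, mt-Cytb and mt-Nd5 lie close together, while mt-Atp6, mt-Co3 and mt-Nd4l spread over much wider ranges, and 2 knockouts listed at 0 for mt-Nd4l are drawn at 10.

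The genes mt-Atp6, mt-Co3, mt-Co2 and mt-Nd4l showed wide spreads that narrowed when their copy on chromosome 1 was added. The proton channel subunit gene mt-Atp6 was at 1500.9, 19538.8, 9308.6, 4060.4 and 7249.8 in controls 1 to 5 and 8437.7, 6165.5, 4017.3, 7222.4 and 3968.4 across knockouts 1 to 5. Its copy Gm10925 carried 36.6% to 93.6% of their summed value, and the sum ran only from 23378 to 30806. Over the 10 libraries the coefficient of variation (CV, SD over mean) was 69.5% for mt-Atp6 alone and 11.2% for the sum.

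The complex IV gene mt-Co3 was at 1690.7, 1434.2, 1882.5, 9674.1 and 1420.5 in controls 1 to 5 and 1796.2, 1318.9, 1186.5, 1625.6 and 2191.6 across knockouts 1 to 5. Control 4 alone stood far above the rest. In that library the copy Gm28437 took 14.4% of the pair, against 82.4% to 88.5% in the other 9, and the sum of mt-Co3 and Gm28437 there was 11300, inside the range of the other libraries (8823 to 14436). The log2 difference of mt-Co3 was -0.53 ± 0.50 (SE, limma unadjusted p = 0.316) alone, -0.01 without control 4 and -0.17 with the copy added.

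For mt-Co2, which carries the first electron acceptor of complex IV, the values were 8851.7, 4041.0, 10937.5, 8360.7 and 12144.3 in controls and 9602.0, 10080.2, 10229.4, 10101.9 and 13858.4 in knockouts. Control 2 was the lowest and knockout 5 the highest, and the groups overlapped. The copy Gm28661 held 17.4%, 65.4%, 2.27%, 36.3% and 0% of the pair in controls 1 to 5 and 1.31%, 0.318%, 0.0103%, 0.302% and 3.70% across knockouts 1 to 5. The widest shares were those of controls 1, 2 and 4, and the group ranges overlapped. The log2 difference of mt-Co2 alone was 0.36 ± 0.26 (SE, limma unadjusted p = 0.193), and with its copies added it was -0.12 ± 0.11 (limma unadjusted p = 0.289). Summed with its copies, mt-Co2 was 11785 ± 939 in controls and 10930 ± 1946 in knockouts (SD, 5 libraries each).

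The small complex I gene mt-Nd4l was at 56.1, 1290.5, 1581.1, 398.0 and 51.6 in controls and 0.0, 1208.5, 1410.6, 0.0 and 996.1 in knockouts. Its copy Gm10222 took 16.8% to 97.5% of the pair in controls and 32.4% to 100% in knockouts, and the CV was 93.9% for mt-Nd4l alone and 18.0% for the sum. Knockouts 1 and 4, listed at 0 for mt-Nd4l, had 1732.3 and 2456.1 for Gm10222. The log2 difference of mt-Nd4l turned from -0.97 ± 2.01 to 0.15 ± 0.17 (SE) with the copy added. The copy of mt-Nd3, Gm28438, was at 0 in 8 libraries and reached 211.5 in control 5. The mt-Nd3 value was lowest there, at 834.3, and highest in knockout 5 at 2323.4. The diverged chromosome 2 copies were low, at a mean of 71.4 for Gm13340 and 12.9 for Gm13341. How the deposited values treat reads that match a gene and its copy equally well has not been given by the sources used here.

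**Figure D3:**
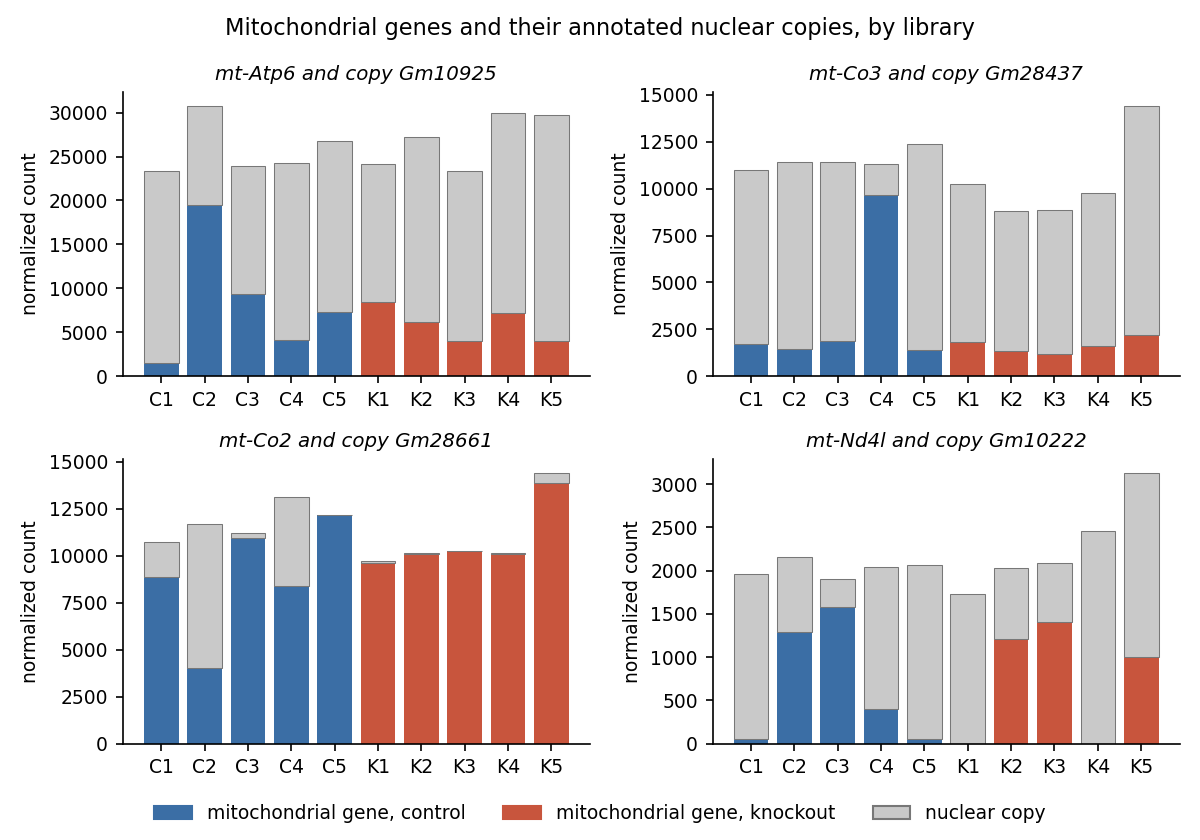
Stacked bars give, per library (C control, K knockout), the normalized count of the mitochondrial gene (coloured) and of its copy on chromosome 1 (grey). The height of the whole bar varies much less than the coloured part: for mt-Atp6 the sum runs from 23378 to 30806 while the gene alone runs from 1500.9 to 19538.8.

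Knockout against control was then compared over all members that passed the filter of at least 10 normalized counts in at least 5 libraries. That left 92 members, all 13 mitochondrial and 79 nuclear. The 5 left out were Ndufs8, an iron-sulfur subunit of complex I that was at 0 in 8 libraries, the isoform genes Cox4i2 and Cox7a1, which were above 10 in 2 libraries each, and the pseudogenes Atp5l2-ps and Atp5l-ps2. No member passed an adjusted p of 0.05 by limma, and the smallest adjusted p was 0.942. The same test called 0 of 11711 genes (0%). At an unadjusted p under 0.05, 1 member was higher in the knockouts and 0 were lower, 1.09% of the 92, whereas 5.01% of all genes tested fell under it, 2.36% higher and 2.66% lower. That member count was 1 to 4 with single libraries left out, up to 4.35% of the members. In those fits 4.35% to 5.56% of all genes were under that p. With the mean level of acinar markers as a covariate, 3 members were higher and 1 lower at that p, beside 1.91% and 1.73% of all genes in that fit. The control and knockout ranges overlapped for all 92 tested members, and 0.862% of all genes tested had ranges that did not. The authors' deposited table gives an adjusted p for 92 members, a set without mt-Co3 and with Cox4i2, and 0 of these are under 0.05 (smallest 0.512), against 19 of 13931 genes there (0.136%). Of the 93 members with an unadjusted p in the authors' deposited table, 3 are under 0.05, namely Ndufa10, Sdhc and Cox7b, against 5.98% of its genes.

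The members' differences were small and centred near those of all genes. Of the 92, 42 had a log2 difference above 0 and 50 below, with a median of -0.05, against 47.6% above 0, 52.4% below and a median of -0.03 over all genes tested. The median was -0.05 for the mitochondrial genes and -0.06 for the nuclear ones. By complex it was -0.03 for complex I (42 tested, 19 above 0 and 23 below), 0.09 for complex II (4 tested, 3 and 1), 0.12 for complex III (10 tested, 7 and 3), 0.06 for complex IV (16 tested, 8 and 8) and -0.11 for complex V (17 tested, 5 and 12). Ndufa4, named for complex I, was counted in complex IV, where its protein is known to sit. For 48 of the 92 members the 95% limits lay within 2-fold in either direction, which held for 2622 of all 11711 genes. For the other 44 members the limits reached past 2-fold. Members had higher values than most genes. Among genes with means between the quartiles of the nuclear members (183 to 427), the limits lay within 2-fold for 21 of 39 nuclear members and 837 of 2588 other genes.

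**Figure D4:**
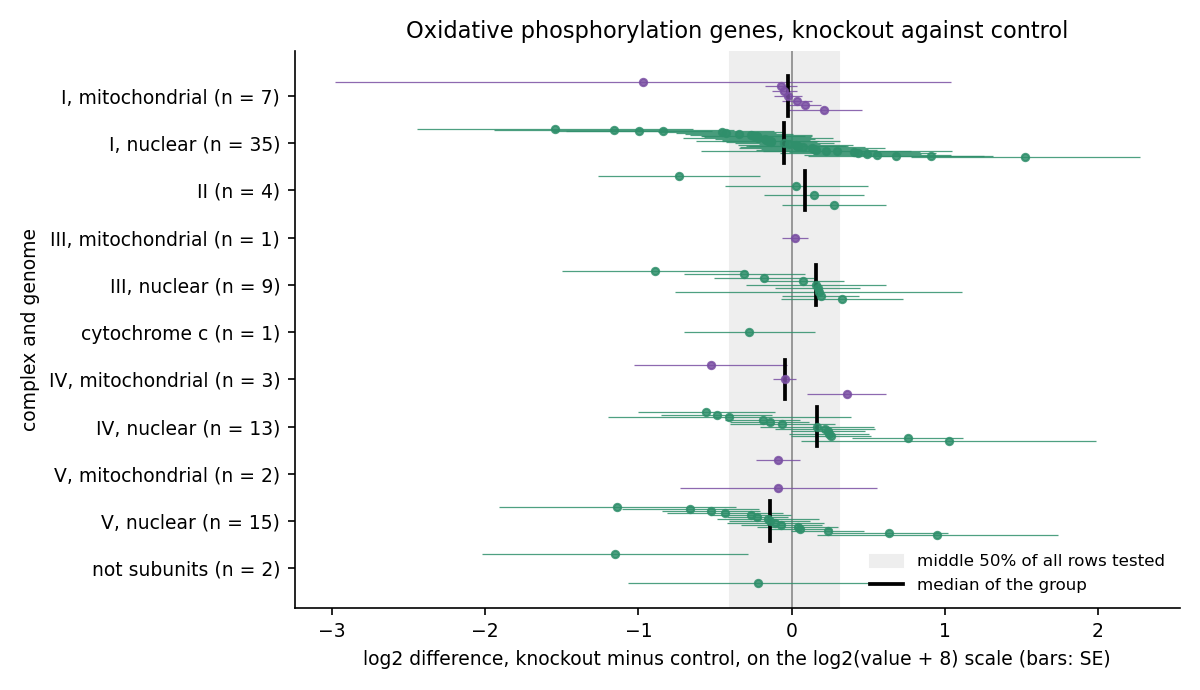
Each point is the log2 difference of 1 tested member, knockout minus control, with its standard error as a bar, grouped by complex and genome. Black ticks are medians of groups with more than 2 members, and the grey band is the middle 50% of all genes tested, which holds the median of every group marked.

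Complex I has core subunits that carry electrons and pump protons and accessory subunits around them. The 13 tested core genes, 7 of them mitochondrial, had a median log2 difference of -0.01, and the 29 accessory genes one of -0.13. The accessory gene Ndufa10 was the member under an unadjusted p of 0.05. Its values were 263.4, 158.0, 165.8, 272.5 and 315.0 in controls 1 to 5 and 1340.3, 348.5, 333.9, 334.3 and 287.4 across knockouts 1 to 5. Knockout 1 was far above the other libraries, 4 knockouts lay above the highest control, and knockout 5 lay within the control range. The log2 difference was 0.91 ± 0.40 (SE, limma unadjusted p = 0.0360, adjusted p = 0.942), and it was 0.51 without knockout 1 (limma unadjusted p = 0.137). Without control 2 or control 3 the limma unadjusted p of Ndufa10 was 0.0829 or 0.0795. An exact 2-sided permutation test over all libraries gave p = 0.0159, where 252 arrangements allow no p under 0.00794. That test was run on every member and listed gene without adjustment, and is quoted only for Ndufa10, Atp5e and Polg2. The share of all genes under 0.05 by it is not given here. Ndufa10 lies on chromosome 1 (92439010 to 92473860, minus strand).

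Ndufs7, a core subunit with the iron-sulfur cluster next to ubiquinone, was at 316.6, 130.1, 228.7, 228.9 and 281.8 in controls and 168.2, 40.2, 141.0, 63.4 and 249.2 in knockouts, a log2 difference of -0.99 ± 0.48 (SE, limma unadjusted p = 0.0512). Knockouts 2 and 4 lay below the lowest control and knockout 5 above the control median. Ndufv1, the core subunit that binds NADH, had the opposite sign, with 36.9, 104.0, 120.9, 64.2 and 0.0 in controls and 339.4, 208.8, 35.4, 127.6 and 159.7 in knockouts. Its log2 difference was 1.53 ± 0.75 (SE, limma unadjusted p = 0.0550), and 0.85 without control 5, which was listed at 0. Ndufs1, the largest subunit of complex I, was between 229.0 and 570.9.

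Among the accessory genes, Ndufa11 was at 142.3, 32.8, 214.8, 227.0 and 53.5 in controls and 0.0, 62.9, 212.0, 0.0 and 85.5 in knockouts. For Ndufa11 the log2 difference was -1.55 ± 0.90 (SE), and -0.97 without either of the knockouts at 0. Ndufa9 and Ndufs4 were near the limit of detection, at means of 24.9 and 23.9 with 4 libraries each at 0, and Ndufs4 had the lowest level per kb of the nuclear members tested (14.1). The Ndufa9 difference was -1.16 ± 0.78 (SE). Ndufs6 was at 0 in knockout 1 and between 118.4 and 203.2 elsewhere. Ndufa12 was 299 ± 85.4 in controls and 457 ± 249 in knockouts (SD, 5 libraries each), with knockout 5 at 863.5. Of the 12 tested members with at least 1 library at 0, 10 were at 0 in knockout 1, which also held the fewest detected genes; the part of depth in these differences was not tested.

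Complex II, the enzyme that joins the citric acid cycle to the chain, had 4 genes tested. Sdha, its flavoprotein, was at 753.8, 1717.5, 604.1, 459.8 and 1295.5 in controls and 501.9, 447.6, 1246.7, 2340.4 and 792.3 in knockouts, a spread of 65.5% of the mean within groups. Sdhc, a membrane anchor, was at 117.8, 640.6, 958.6, 127.4 and 485.4 in controls and 300.8, 127.0, 143.0, 205.6 and 296.6 in knockouts. No knockout reached the control median of Sdhc, but control 1 lay below every knockout and control 4 beside the lowest one. Between groups Sdhc differed by a log2 value of -0.74 ± 0.53 (SE, limma unadjusted p = 0.181), with values from -1.11 without control 1 to -0.37 without control 3 where single libraries were left out, and 0.69 without controls 2, 3 and 5 together. Sdhb and Sdhd, the iron-sulfur subunit and the other anchor, spread by 26.0% and 28.1%.

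In complex III, the 10 tested members had log2 differences from -0.89 to 0.33. The lowest was Uqcr10, a small accessory subunit, at 119.1, 114.9, 176.0, 224.0 and 448.9 in controls and 21.8, 38.6, 236.8, 175.7 and 213.3 in knockouts. Knockouts 1 and 2 lay below all controls and the other 3 within their range, and the difference of Uqcr10 was -0.89 ± 0.60 (SE), or -0.43 without knockout 1. Cyc1, the cytochrome c1 gene, varied widely, from 0.0 in knockout 1 and 3.0 in control 2 to 251.5 in knockout 3. The Rieske protein gene Uqcrfs1 was between 125.3 and 435.2, and Uqcrc1, a core protein gene, between 60.1 and 269.0. Uqcrq had the highest level per kb of the nuclear genes of complex III, 1132, and a spread of 20.1%.

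Cycs, which encodes the cytochrome c that links complexes III and IV, was between 157.4 and 304.0 in controls and between 70.0 and 374.6 in knockouts. The identical Gm10053 took 33.5% to 68.6% of the pair in controls and 26.2% to 52.1% in knockouts. Alone, Cycs had a log2 difference of -0.28 ± 0.43 (SE), which was 0.06 without knockout 1, and with its copies added the difference was -0.67 ± 0.38 (SE). Summed with its copies, Cycs was 496 ± 22.3 in controls and 358 ± 178 in knockouts (SD, 5 libraries each), and the knockout range, 94.9 to 576, enclosed the control range.

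Complex IV combines 3 mitochondrial core subunits with nuclear subunits, some of which exist as tissue isoforms. Cox7b was at 209.6, 194.0, 303.5, 438.5 and 462.8 in controls and 388.1, 1206.4, 396.6, 487.4 and 403.8 in knockouts. Knockout 2 alone was far above the rest, knockout 4 lay just above the highest control and the other 3 within the control range. For Cox7b the log2 difference was 0.76 ± 0.36 (SE, limma unadjusted p = 0.0508), and 0.45 without knockout 2. Cox6c had the highest level per kb of all nuclear members, 1751. The isoform pairs were not alike in use: Cox4i1 was at 618 and Cox4i2 at 7.35 per kb, Cox7a2 at 387 and Cox7a1 at 12.9, whereas Cox6a1 and Cox6a2, the latter known as the heart and muscle isoform, were at 471 and 355. Over the 16 genes tested, log2 differences ran from -0.56 for Cox6b1 to 1.02 for Ndufa4, which was at 0 in 5 libraries and reached 126.6 in knockout 5. Cox5a, at 131 per kb, was between 0.0 and 158.3, and Cox5b, at 715 per kb, between 534.3 and 1007.7.

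Complex V has a catalytic head, a peripheral stalk and a membrane part with a ring of c subunits. Atp5b, the catalytic β subunit gene, had a level of 1102 per kb and was at 2362.6, 2291.7, 1939.7, 2297.1 and 2273.9 in controls and 1386.3, 1398.5, 1821.1, 2559.8 and 2785.2 in knockouts. Knockouts 1, 2 and 3 lay below every control and knockouts 4 and 5 above every control. The group means of Atp5b were 2233 ± 167 and 1990 ± 652 (SD, 5 libraries each), and the log2 difference was -0.22 ± 0.20 (SE, limma unadjusted p = 0.276). Atp5a1, its partner in the head, was 984 ± 203 and 1014 ± 133. Atp5e, the ε subunit gene, was at 145.9, 115.9, 192.1, 198.6 and 116.8 in controls and 46.4, 79.5, 156.9, 104.0 and 105.0 in knockouts. For Atp5e 4 knockouts lay below every control and knockout 3 within their range. The log2 difference was -0.66 ± 0.45 (SE, limma unadjusted p = 0.155, adjusted p = 0.942). The exact 2-sided permutation p of Atp5e, also unadjusted, was 0.0476.

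The c subunit is encoded by 3 genes that give the same mature protein. Their levels per kb were 640 for Atp5g1, 461 for Atp5g3 and 241 for Atp5g2. Atp5g1 was 441 ± 83.1 in controls and 321 ± 133 in knockouts, and Atp5g3 270 ± 129 and 388 ± 98.5 (SD, 5 libraries each). Their log2 differences, -0.53 ± 0.32 and 0.64 ± 0.38 (SE), had opposite signs and were -0.33 for Atp5g1 without knockout 4 and 0.32 for Atp5g3 without control 3. Atp5g2 was at 0 in control 5, where its copy Gm10175 on chromosome 7, identical over the coding sequence, was at 181.5. In control 1 the values were the other way round, with 158.4 for Atp5g2 and 0.0 for Gm10175. For Atp5g2 the log2 difference was 0.95 ± 0.79 (SE) alone, 0.22 without control 5 and -0.32 ± 0.36 with the copies added.

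Other tested genes of complex V had log2 differences between -1.14 and 0.24. The lowest of them was that of Atp5o, a peripheral stalk gene listed at 0 in knockout 1 and between 78.5 and 352.5 elsewhere (-1.14 ± 0.78, SE). Atp5s and Atp5sl, which carry Atp5 symbols but were not counted as subunits, were low and uneven, with differences of -0.22 ± 0.85 and -1.16 ± 0.87 (SE).

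The spread between libraries of 1 group, as a percent of the mean, differed between the member groups. Its median was 11.8% for the mitochondrial genes, 35.3% for the 79 nuclear genes and 57.2% for all genes tested. Among the genes with means between the quartiles of the nuclear members (183 to 427) it was 35.0% for 39 nuclear members and 42.7% for 2588 other genes. This is a description of these libraries, without a test. The mitochondrial genes mt-Co3, mt-Nd4l and mt-Atp6, at 106%, 99.6% and 71.4%, were above the median of all genes, and each has a copy with a value of its own.

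**Figure D5:**
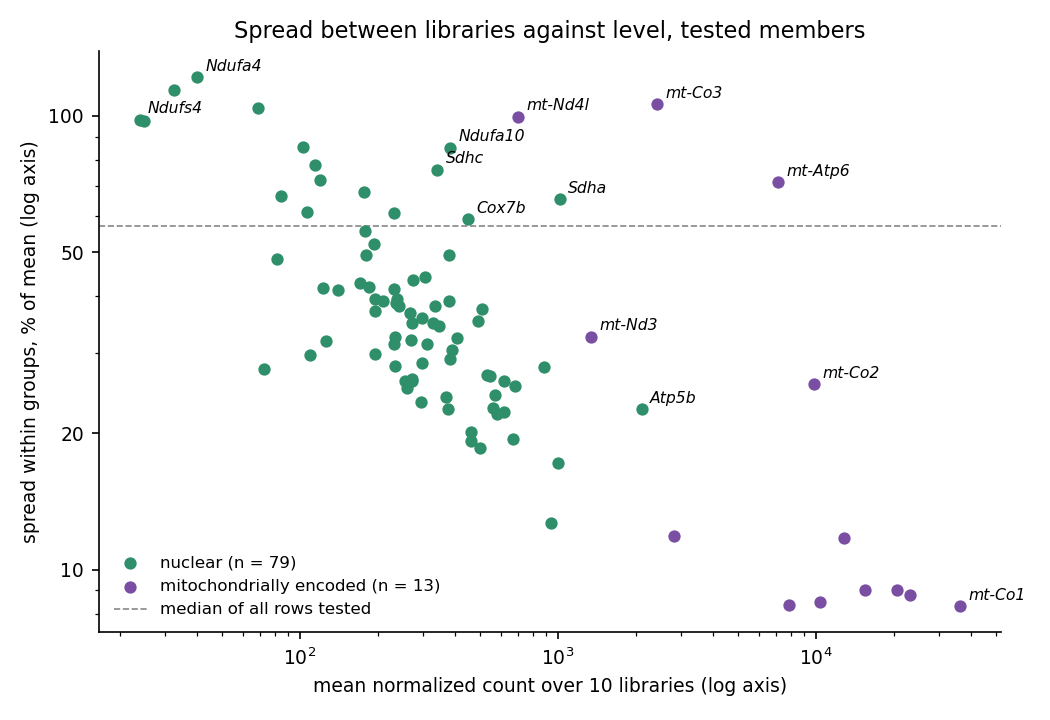
Points are the 92 tested members, by mean normalized count over 10 libraries and by the spread within groups as a percent of the mean, both on log axes. The dashed line is the median of all genes tested (57.2%), and mt-Co3, mt-Nd4l and mt-Atp6 lie above it, while the other mitochondrial genes lie below it.

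Genes that build, transcribe or supply the complexes were taken as 8 further lists of 118 genes, of which 106 were found in the table by the symbol listed and 99 were tested. The complex I assembly factor Dmac2 is there under Atp5sl, counted as a member and not in its list. None had an adjusted p under 0.05, and 0 were under an unadjusted p of 0.05 in either direction, against 5.01% of all genes. Median log2 differences were 0.05 for complex I assembly factors (15 tested), 0.71 for complex II (2 tested), -0.02 for complex III (6 tested), -0.27 for complex IV (21 tested, 7 above 0 and 14 below) and -0.28 for complex V assembly and regulation (5 tested). They were -0.02 for mitochondrial DNA and RNA machinery (19 tested), 0.02 for biogenesis regulators (10 tested) and 0.07 for electron carriers, nucleotide exchange and uncoupling (21 tested).

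Polg2, the accessory subunit of the mitochondrial DNA polymerase, had the lowest p of these genes. It was at 41.3, 28.2, 28.7, 25.3 and 52.9 in controls and 96.9, 65.3, 51.0, 182.0 and 80.2 in knockouts. Knockout 3 lay just below control 5, and the other 4 knockouts above every control. For Polg2 the log2 difference was 1.17 ± 0.57 (SE, limma unadjusted p = 0.0562, adjusted p = 0.942), with an exact 2-sided permutation p = 0.0159.

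Ecsit, a complex I assembly factor, was at 35.2, 49.1, 49.4, 60.7 and 8.3 in controls and 409.7, 65.0, 81.0, 59.1 and 59.0 in knockouts. Knockout 1 stood far above the rest, and the Ecsit difference of 1.25 ± 0.66 (SE) was 0.75 without it. Dhodh, which passes electrons from pyrimidine synthesis to ubiquinone, had a difference of -1.40 ± 0.72, Lyrm7, a complex III assembly factor, one of -1.60 ± 0.89, and Coa3, which acts in complex IV assembly, one of -1.16 ± 0.67 (SE). Without knockout 1, at 8.7, Coa3 was at -0.51.

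Tfam, which packages mitochondrial DNA and starts its transcription, was 151 ± 101 in controls and 248 ± 154 in knockouts (SD, 5 libraries each), a log2 difference of 0.83 ± 0.59 (SE) that was 0.33 without control 4. Nrf1, a transcription factor of many respiratory genes, was 150 ± 69.9 and 283 ± 212, and Lrpprc, which stabilises mitochondrial messages, 572 ± 192 and 409 ± 155. The Nrf1 difference of 0.76 ± 0.48 (SE) was 0.41 without knockout 4, and that of Lrpprc, -0.49 ± 0.30, was -0.32 without control 5. Ppargc1a, a coactivator of mitochondrial biogenesis, was 237 ± 157 and 221 ± 153, and Ucp2, an inner membrane carrier abundant in β cells, 1116 ± 541 and 1268 ± 318. The adenine nucleotide carrier genes Slc25a4 and Slc25a5 were 660 ± 166 and 705 ± 212, and 654 ± 96.2 and 606 ± 118. All of these group ranges overlapped.

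Nuclear members are transcribed from many separate promoters, and the transcription factor NRF1 is known to bind a palindromic site in a number of them. Promoters in the RefSeq table (GRCm38.p6, from 250 bases before to 50 after the start) matched 66 of the 80 nuclear subunit genes, and they were searched on both strands. The NRF1 palindrome, written as GCGCA, any base and then GCGC, was found in 25.8% of these 66, in 11.8% of 9153 tested genes with a promoter and in 5.19% of all 27025 genes in the table. By complex it was in 7 of 32 promoters of complex I, 2 of 3 of complex II, 1 of 5 of complex III, 1 of 11 of complex IV and 6 of 14 of complex V. Stretches with the match in capitals are shown for members described above, 40 bases each, 5′ to 3′ on the strand of the gene. They lie upstream of the start, for Ndufa11 at chr17:56717687-56717726 (+), for Atp5g2 at chr15:102671065-102671104 (-), for Cox6a1 at chr5:115349051-115349090 (-) and for Sdha at chr13:74350271-74350310 (-).
Ndufa11: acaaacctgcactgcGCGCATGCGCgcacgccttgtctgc
Atp5g2: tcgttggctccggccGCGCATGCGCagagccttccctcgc
Cox6a1: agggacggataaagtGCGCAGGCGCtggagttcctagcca
Sdha: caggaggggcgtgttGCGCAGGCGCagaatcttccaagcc

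A match is a description of letters in these windows and shows no binding. The ETS-type letters CCGGAAG, known from GABPA sites, were in 24.2% of members' promoters (16 of 66) and 20.1% of those of tested genes. For the YY1 letters AAGATGGCG the shares were 10.6% (7 of 66) and 3.68%. For the ERRα letters TCAAGGTCA they were 3.03%, which is only 2 of 66 promoters, and 0.339% (31 of 9153). These shares carry no test. Members with the palindrome had differences of either sign between the groups, with log2 values of -1.55 for Ndufa11 and 0.95 for Atp5g2. Both genes had libraries at 0, and Atp5g2 was at -0.32 with its copies added.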

How the data were processed

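Libraries were random-primed and stranded, made after removal of ribosomal RNA, and read as pairs of 75 bases, per the labels' protocols. STAR 2.4.0.1, HTSeq and DESeq2 are named, without roles, in the submitters' processing notes. Genome build and annotation are not given in the sources used here. What the authors deposited are normalized counts per gene, a signal on a scale common to the libraries: between 25.0% and 37.0% of a library's values were whole multiples of its commonest low value (within 0.01 of a whole number), so whole reads were not recovered, depth in reads is unknown, and a count test was not used. The authors' deposited table also gives log2 fold changes, a test score and p-values from their own comparison, quoted only where it is named.

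Members, lists and named genes were chosen with earlier results of these data known. One row with no gene name was left out. Genes with at least 10 in at least 5 libraries were fitted as log2(value + 8) with limma 3.58.1 in R 4.3.3 (mean-variance trend, robust, Benjamini-Hochberg over 11711 genes at 0.05). The fit was tested on simulated data. The added 8 shrinks the log2 change between low values. Where libraries lie at 0, the difference can instead exceed that of the group means or oppose it. Ndufa11 was at -1.55 here and at -0.88 in the authors' deposited table. The difference of mt-Nd4l was -0.97, though its mean was 675 in controls and 723 in knockouts. Named genes were the 6 tested members with the smallest p in each direction, the mitochondrial genes, landmark subunits, isoform sets, the highest and lowest per kb in each complex, those with a library at 0 and up to 2 per further list. Sdhd, Cox5b, Cox6b1, Cox6c, Uqcrq, Atp5sl and the copies were outside that rule and named after their values were seen. All 97 members matched GENCODE M21 on GRCm38, 1 by synonym (Atp5sl, listed as Dmac2), and positions and lengths are from it. Copies were found with BLAST 2.17.0 at 90% identity over 30% of the coding sequence, a limit set after seeing the matches, and were added to their member as an alternative chosen after seeing the data. Other alternatives were scalings, filters, pseudocounts, variance estimates, weights by library quality, acinar level as a covariate and leaving out libraries. RNA quality transcripts such as Malat1 were not used here.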

Additional observations from a re-analysis of the deposited data

Results flagged for a closer look

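Each group of 5 libraries was examined for a library that lay far from the other 4, for members and further genes followed through the alternatives. Of the members with a reported difference, Atp5o, Atp5s, Atp5sl, Ndufa4 and Cox6b1 were not among those followed. Such a library was found in 9 of 78 groups (11.5%). Chance gives about 1 in 20 for normally distributed values; these values were not log-transformed and some genes were named for their differences, so no excess is read from the share. Knockout 1 was the high library for Ndufa10 (1340.3) and for Ecsit (409.7), and it also held the fewest detected genes, 10222. Knockout 2 was the high library for Cox7b (1206.4), and knockout 3 for Lyrm7 (63.6). Knockout 5 was the high library for mt-Co1 (42467.8), mt-Co2 (13858.4) and mt-Nd3 (2323.4), and it also had the highest mitochondrial share, 2.69%. Control 4 was the high library for mt-Co3 (9674.1), where the copy Gm28437 had its lowest share of the pair, 14.4%. Control 3 was the low library for Atp5b (1939.7). No explanation of these values was tested.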

How the results depend on the processing

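No paired analysis was possible because the labels give the libraries no shared replicate numbers. Under every alternative run, 0 members passed an adjusted p of 0.05. Among all genes 0 passed, except 1 without trend and robust fit, 1 without controls 2 and 5, 4 without controls 2, 3 and 5, and 0 to 1 with single libraries left out (1 without control 1). Members at an unadjusted p under 0.05 (1 in all, 1 higher, 0 lower) became 2 in all and 1 lower under each of the 3 other scalings and without controls 2 and 5 or 2, 3 and 5. They were 2 in all and 2 higher with a pseudocount of 32, 0 in all and 0 higher without trend, 3 in all (2 higher, 1 lower) with quality weights and 4 in all (3 higher, 1 lower) with the acinar covariate. With single libraries left out they were 1 to 4 in all, 1 to 3 higher and 0 to 2 lower. Leaving out any library but control 3 gave 2 or more. Of all genes, 4.47% to 4.96% were under that p with the other scalings. Without controls 2 and 5 the share was 4.3%, and without controls 2, 3 and 5 it was 3.76%. It was 5.16% with a pseudocount of 32, 4.91% without trend, 5.65% with quality weights and 3.65% with the acinar covariate. With single libraries left out it was 4.35% to 5.56%. Members exceeded the share of all genes only with the acinar covariate, at 4.35%. Members whose groups did not overlap, 0 in all libraries, were 2 without controls 2 and 5, 6 without controls 2, 3 and 5, and 0 to 3 with single libraries left out (above 0 without control 2, control 5, knockout 3 or knockout 5). Each omission leaves fewer libraries, which can only raise this count, for any gene. The share of all genes is not given for these smaller sets, so nothing about the members is read from these counts. Otherwise the cause was not tested. The complex II median (4 genes), 0.089 in all libraries, ran from -0.14 to 0.54, the latter without controls 2, 3 and 5. It and the other medians by genome and complex moved by less than the pooled SD of the group's mean level between libraries, and those near 0 changed sign.

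The sign of the log2 difference turned as follows. With quality weights mt-Nd4l was 0.00325 and mt-Cytb -0.016, and with the acinar covariate mt-Nd4 was 0.00942. With copies added, chosen after seeing the data, mt-Co2 was -0.12, mt-Nd4l 0.15, mt-Atp6 0.059 and Atp5g2 -0.32. Without controls 2 and 5, left out for their Esr1 values, mt-Nd2 was -0.017, mt-Cytb -0.019, mt-Atp6 0.57 and Atp5g2 -0.43. Without controls 2, 3 and 5, whose low values were spaced differently, mt-Nd2 was -0.046, mt-Nd4l 0.00473, mt-Nd6 -0.039, mt-Cytb -0.022, mt-Atp6 1.20, Sdhc 0.69, Cycs 0.16 and Atp5g2 -0.57. With single libraries left out mt-Atp6 ran from -0.59 to 0.34, mt-Nd4 from -0.080 to 0.021, mt-Nd4l from -1.75 to 0.11, mt-Nd5 from -0.092 to 0.00555, mt-Cytb from -0.047 to 0.054 and Cycs from -0.51 to 0.062. Ndufa9 and Lyrm7 had no value with a minimum of 50. Read depth is unknown, so the precision of members near 0 cannot be given.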
